A study of Rattus norvegicus with 16 samples.

Results

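The 35 genes described here encode the digestive enzymes of the pancreas and the proteins that make, package and release them in acinar cells. They were chosen by name from the known biology of the acinar cell, with earlier results of these data known. The list holds 5 trypsinogens, 8 other proteases, amylase and 6 lipases or lipase partners, and 7 granule proteins and inhibitors. It also holds 4 transcription factors, and 4 genes for a receptor, the endoplasmic reticulum and creatine synthesis. Of these, 34 were among the 45777 gene symbols of the deposited tables, and Try4 was not. Expression was measured by RNA sequencing in wildtype male Sprague-Dawley rats treated through the trachea with BKC (benzalkonium chloride, which is used as a disinfectant). The animals received 10 instillations, 1 every 3 days from 7 weeks of age, and organs were taken on day 31, when 24 h had passed since the last of them. The pancreas groups were BKC100 (100 µg per rat at each instillation) and vehicle, with 2 libraries each. Adrenal gland and heart also had a 50 µg group (BKC50), which was not run in pancreas. In all there were 16 samples in 8 groups, and library titles call the BKC groups control groups as well, so the treatment was read from the treatment label. Adrenal glands of an animal are stated to have been pooled and the heart piece to have been left ventricular, which was not tested here. The labels do not state whether pancreas libraries of a group come from separate animals, so the p-values measure the spread between these libraries, which may be technical.

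Acinar cells fill most of the exocrine pancreas. They synthesise enzymes as inactive precursors (zymogens), store them in zymogen granules under the apical membrane, and release them into the duct when cholecystokinin or acetylcholine raises calcium. Trypsin, made from trypsinogen in the gut lumen, activates the other zymogens, and inhibitors in the granule guard against early activation. The genes are driven by a shared set of transcription factors, chiefly the PTF1 complex of Ptf1a with Rbpjl, which in rodent enzyme promoters binds an E-box (CANNTG) next to a TTTCCC box.

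The promoters of 27 of the 35 genes were in the RefSeq table of assembly GRCr8, each from 250 bases before to 50 bases after the start. The first 3 below are those in which both PTF1 boxes stood in the arrangement searched, and the last 2 belong to the most abundant trypsinogen among the 35 genes and to Try5, the trypsinogen called lower. Capitals mark the E-box CACCTG, which reads CAGGTG when it lies on the opposite strand. They also mark the box TTTCCC, which then reads GGGAAA. The sense-strand TATA box TATAAA is in capitals too. The Cela1 promoter is at chr7:133665012-133665311 on the minus strand and the Ctrb1 promoter at chr19:56566929-56567228 on the minus strand. Those of Prss2 (chr4:71244714-71245013, plus strand), Prss1 (chr4:71330999-71331298, plus strand) and Try5 (chr4:71183646-71183945, minus strand) lie in the trypsinogen cluster of chromosome 4.
Cela1: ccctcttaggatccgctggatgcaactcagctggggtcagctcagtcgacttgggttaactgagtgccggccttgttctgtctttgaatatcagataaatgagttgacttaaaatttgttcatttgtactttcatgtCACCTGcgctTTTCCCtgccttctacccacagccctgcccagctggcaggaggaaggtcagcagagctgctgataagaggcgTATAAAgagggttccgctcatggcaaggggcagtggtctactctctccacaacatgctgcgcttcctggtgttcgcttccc
Ctrb1: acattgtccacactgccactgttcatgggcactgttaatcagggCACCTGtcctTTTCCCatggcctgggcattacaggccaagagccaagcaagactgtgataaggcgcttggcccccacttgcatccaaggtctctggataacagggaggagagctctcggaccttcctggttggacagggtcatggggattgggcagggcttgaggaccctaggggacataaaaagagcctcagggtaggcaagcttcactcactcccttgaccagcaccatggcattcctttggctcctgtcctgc
Prss2: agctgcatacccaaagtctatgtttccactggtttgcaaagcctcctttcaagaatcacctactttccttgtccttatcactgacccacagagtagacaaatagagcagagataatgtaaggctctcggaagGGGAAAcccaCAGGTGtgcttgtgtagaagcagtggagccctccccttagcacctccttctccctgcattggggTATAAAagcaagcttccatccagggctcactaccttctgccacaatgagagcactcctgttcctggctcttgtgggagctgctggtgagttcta
Prss1: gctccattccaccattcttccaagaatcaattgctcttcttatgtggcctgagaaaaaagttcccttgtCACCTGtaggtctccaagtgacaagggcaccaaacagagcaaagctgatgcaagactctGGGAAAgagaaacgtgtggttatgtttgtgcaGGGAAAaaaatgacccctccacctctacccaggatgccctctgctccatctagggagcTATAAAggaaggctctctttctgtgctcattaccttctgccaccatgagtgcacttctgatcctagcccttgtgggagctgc
Try5: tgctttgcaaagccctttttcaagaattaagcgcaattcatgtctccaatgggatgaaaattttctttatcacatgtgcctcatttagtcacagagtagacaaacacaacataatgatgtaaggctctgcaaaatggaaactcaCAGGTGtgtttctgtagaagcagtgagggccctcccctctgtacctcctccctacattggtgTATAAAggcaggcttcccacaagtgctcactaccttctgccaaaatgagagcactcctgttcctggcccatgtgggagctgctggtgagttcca

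CACCTG followed after a gap of any 4 bases by TTTCCC, searched on both strands, was found in 3 of the 27 promoters (11.1%) and in 9 of all 33469 promoters of the table (0.0269%). In Cela1 the CACCTG began 113 bases before the start, in Ctrb1 206 bases before it, and in Prss2 the pair ran on the opposite strand with CAGGTG at 108 bases. CACCTG alone, on either strand, was in 16 of 27 acinar promoters (59.3%), against 18.8% of all promoters. TTTCCC, on either strand, was in 12 (44.4%, against 25.1%), and TATAAA, sense strand only, in 10 (37.0%, against 8.8%). The general E-box CANNTG, which includes CACCTG, was in 24 (88.9%, against 72.1%). These matches describe letters in a window and do not show binding. Try5 had CAGGTG at 106 bases and TATAAA at 44 bases before the start, and the TTTCCC spelling was not among the letters of its window.

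Digestive enzyme transcripts dominated all 4 pancreas libraries. Values are FPKM (fragments scaled by transcript length and library size), and of the 10 genes with the highest mean FPKM 4 belonged to the list, as did 10 of the top 20 and 19 of the top 30. The listed genes made up 36.1% and 36.8% of summed FPKM in the BKC100 libraries, against 40.4% and 34.9% in the vehicle libraries. The means were 36.4 ± 0.518% and 37.7 ± 3.86% (SD, n = 2 each), a difference of -1.24 percentage points with an exact two-sided permutation p of 1.0. With 2 libraries against 2, that test cannot go below 0.33. Defining genes of adrenal cortex and heart muscle summed to at most 0.0905 and 0.289 FPKM, so the tissue label fits the acinar transcripts found. In bulk tissue, fewer cells of a type and less RNA per cell cannot be told apart.

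**Figure D1:**
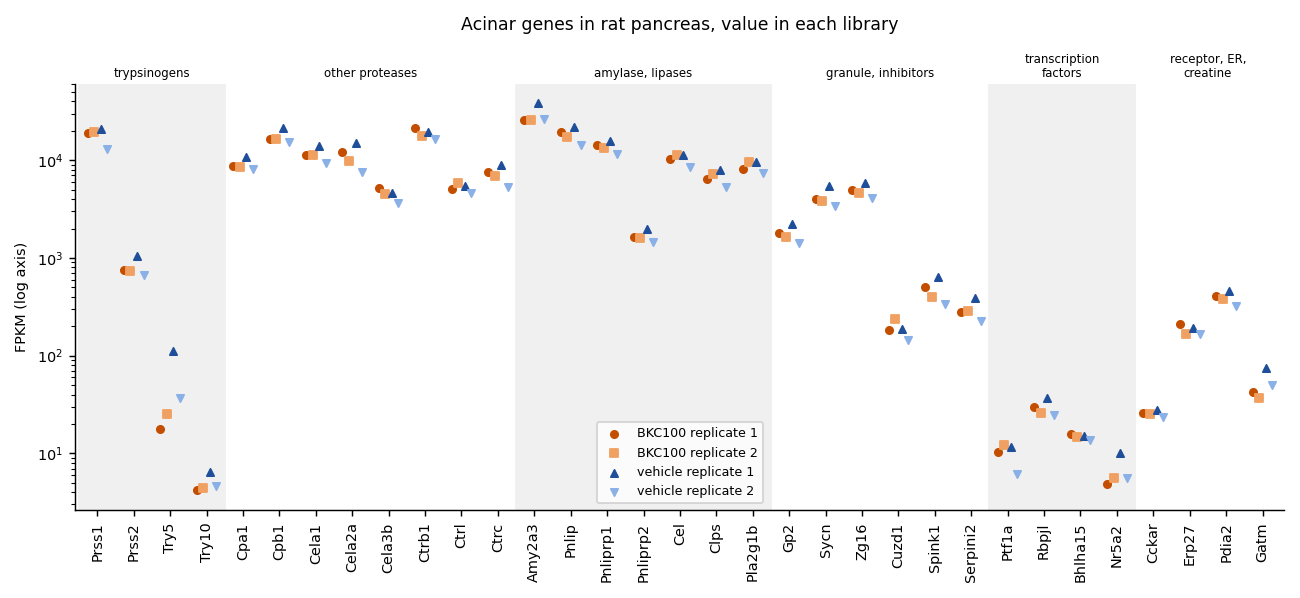
FPKM of each of the 33 detected acinar genes on a log axis, in each of the 4 pancreas libraries, ordered by role. Enzymes such as Amy2a3 (25558 and 25914 FPKM with BKC100) stand far above transcription factors such as Nr5a2 (4.91 and 5.59 FPKM with BKC100), and the symbols of the groups overlap for most genes.

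Of the 34 genes in the table, 33 had a mean of at least 1 FPKM and were tested, and Klk1, a tissue kallikrein, was listed at 0 in every library. Klk1b3, which carries Klk1 as a synonym in RefSeq, had 737.1 and 699 FPKM with BKC100 and 923.9 and 625.3 FPKM with vehicle. Between the groups, limma on log2(FPKM + 1), adjusted over 5610 genes, called 1 acinar gene lower, Try5, and 0 higher. Of all tested genes 0.392% were called, 0.232% lower and 0.16% higher. The other 32 genes did not pass, with log2 changes from -0.62 to 0.37, each with an adjusted p of 1 from limma. Their 95% intervals lay within -1.32 and 1.08 on the log2 scale, and changes within that span could not be told from 0. The log2 change was positive in 17 and negative in 16 of the 33 genes, with a median of 0.01, against -0.07 over all tested genes. At an unadjusted p under 0.05, 1 of the 33 genes and 124 of the 5610 passed.

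Trypsinogens are the precursors of trypsin. Prss1 had 18873 and 19413 FPKM with BKC100 and 20734 and 12998 FPKM with vehicle, the vehicle libraries enclosing both BKC100 libraries (log2 change 0.22). Prss2 had 761.6 and 736.4 FPKM with BKC100 and 1057.5 and 667.9 FPKM with vehicle, again enclosed. The low Try10 had 4.18 and 4.4 FPKM with BKC100 and 6.44 and 4.64 FPKM with vehicle (log2 change -0.29), so both BKC100 values were below both vehicle values.

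Try5, another trypsin gene of the same cluster, had 17.8 and 25.5 FPKM in the BKC100 libraries and 111.2 and 37.2 FPKM in the vehicle libraries. Both BKC100 libraries were below both vehicle libraries, and vehicle replicate 1 stood far above the other 3. The means were 21.7 ± 5.47 and 74.2 ± 52.3 FPKM (SD, n = 2 each), and Try5 fell by 1.55 on the log2 scale (SE 0.36, 95% interval -2.26 to -0.84, limma adjusted p = 0.0077). The standard error is the spread shared over genes, since limma shrank the variances fully, and does not count the 2.98-fold gap between the vehicle libraries of Try5 itself. Without vehicle replicate 1 the log2 change was -0.78 (adjusted p = 0.516), and without vehicle replicate 2 it was -2.33 (adjusted p = 0.00538). Without BKC100 replicate 1 or BKC100 replicate 2 it was -1.30 or -1.80, with adjusted p = 1 for both. Under median-ratio scaling it was -1.45 (adjusted p = 0.521), and with protein-coding genes rescaled to equal sums, chosen after seeing the data, it was -1.45 (adjusted p = 0.624). The call ended in 8 of 12 alternatives, the others being no filter on low values (adjusted p = 1), quantile normalization (0.691) and no robust shrinkage (0.081).

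The trypsinogen neighbours of Try5 on chromosome 4, looked at after the values of Try5 were seen, were as follows. 1810009J06Rikl, for which RefSeq lists Try4 as a synonym, fell (19.1 and 13.0 FPKM with BKC100 and 75.3 and 25.6 FPKM with vehicle, log2 change -1.43, SE 0.37, limma adjusted p = 0.0312). It did not pass without vehicle replicate 1 (log2 change -0.67, adjusted p = 0.598), or without BKC100 replicate 1 or BKC100 replicate 2 (-1.69 and -1.16, adjusted p = 1 for both). Nor did it pass with no filter on low values (adjusted p = 1), under median-ratio scaling (0.519), under quantile normalization (0.677), with coding genes at equal sums (0.635) or without robust shrinkage (0.129). Prss3, which RefSeq also lists under Try4, had 37.5 and 34.9 FPKM with BKC100 and 140.4 and 41.2 FPKM with vehicle, and did not pass (adjusted p = 0.412). Prss3bl1 had 190.4 and 189.3 FPKM with BKC100 and 672.4 and 263.5 FPKM with vehicle, and did not pass either (adjusted p = 0.149). In these 3 genes as in Try5, vehicle replicate 1 was by far the highest library. Prss3b, the most abundant of the neighbours, had 11836 and 12808 FPKM with BKC100 and 18604 and 9244 FPKM with vehicle, with BKC100 between the vehicle libraries. Prss2l1 went the other way, with 4.91 and 47.9 FPKM with BKC100 and 2.06 and 19.5 FPKM with vehicle. Its vehicle replicate 1 was the lowest library, and its log2 change of 1.10 (SE 2.05) did not pass. Because Try4 is a synonym of more than 1 gene in RefSeq, no value was assigned to it. These genes belong to 1 family, and their transcripts were not compared by sequence. How the authors' counting divided reads among them is not given in the sources used here, so the division between members is uncertain.

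The other proteases are the precursors of carboxypeptidases, elastases and chymotrypsins. None of the 8 passed. Cpa1, carboxypeptidase A1, had 8739 and 8562 FPKM with BKC100 and 10846 and 8092.5 FPKM with vehicle. Cpb1, which removes basic residues from peptide ends, had 16415 and 16598 FPKM with BKC100 and 21327 and 15454 FPKM with vehicle. In both genes the BKC100 libraries differed from each other by far less than the vehicle libraries did, and lay between them. Among the elastases, Cela1 had 11239 and 11205 FPKM with BKC100 and 13860 and 9447 FPKM with vehicle. Cela2a had 12095 and 9853 FPKM with BKC100 and 15060 and 7576 FPKM with vehicle. Cela3b had 5186 and 4565 FPKM with BKC100 and 4592 and 3693 FPKM with vehicle, and its log2 change was 0.24 with overlapping groups. The elastases therefore gave no common order of the groups.

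Chymotrypsinogens cut after aromatic residues once activated. Ctrb1 was among the most abundant, with 21531 and 17571 FPKM with BKC100 and 19266 and 16499 FPKM with vehicle. Ctrc, the chymotrypsin that degrades trypsinogen in human pancreas, had 7568 and 6865.5 FPKM with BKC100 and 9017 and 5379 FPKM with vehicle. Ctrl, a chymotrypsin-like protease, had 5079 and 5876 FPKM with BKC100 and 5423 and 4631 FPKM with vehicle. The groups overlapped in all 3.

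**Figure D2:**
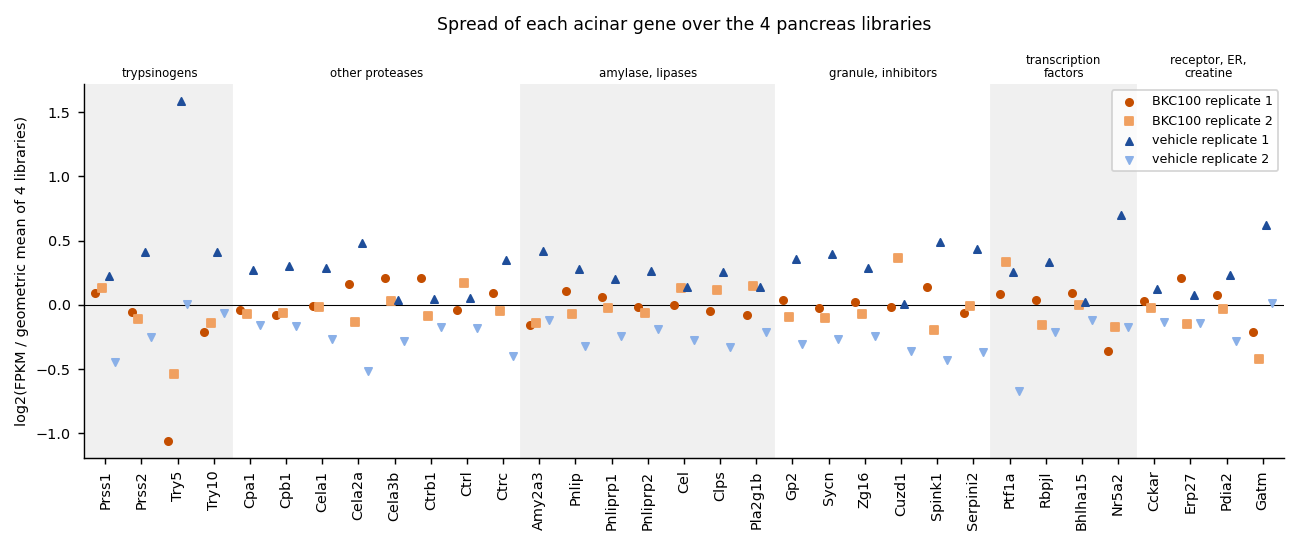
Each of the 33 tested acinar genes in the 4 pancreas libraries, drawn as log2 of its FPKM over the geometric mean of that gene's 4 libraries, with BKC100 and vehicle replicates as separate symbols. Vehicle replicate 1 (dark triangles) was above vehicle replicate 2 (light triangles) in 33 of 33 genes, and both BKC100 libraries fell between them in 20.

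The order of the libraries was much the same from gene to gene. Vehicle replicate 1 exceeded vehicle replicate 2 in 33 of 33 acinar genes, by 1.11 to 2.98 times with a median of 1.45, and over all genes tested it did so in 5283 of 5610 with a median of 1.51. The BKC100 libraries were closer, with replicate 1 over replicate 2 between 0.697 and 1.28 (median 1.03, against 1.09 over all genes). Both BKC100 values lay between the vehicle values in 20 of 33 acinar genes (60.6%), against 47.3% of all tested genes. Vehicle replicate 1 was the highest of the 4 in 25 acinar genes (75.8%, against 77.0% of all), and vehicle replicate 2 the lowest in 27 (81.8%, against 60.2%). Groups that did not overlap were found for 4 of 33 acinar genes (12.1%), against 16.1% of all tested genes. All 4, Try5, Try10, Amy2a3 and Gatm, were lower with BKC100, as were 11.0% of all tested genes, against 5.06% higher. Without vehicle replicate 1 the median log2 change of the listed genes was 0.24, against 0.14 over all tested genes. Without vehicle replicate 2 these medians were -0.3 and -0.26. The part of the shared order of the vehicle libraries in the comparison was not tested further.

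Amylase, which splits starch, was the most abundant enzyme of the list. Amy2a3 had 25558 and 25914 FPKM with BKC100 and 38185 and 26302 FPKM with vehicle, so both BKC100 libraries lay below both vehicle libraries, the nearer by a small margin. Its log2 change was -0.30 (SE 0.33, 95% interval -0.95 to 0.35) and did not pass. Without vehicle replicate 2 it was -0.57 (limma adjusted p = 0.0464), a fit against vehicle replicate 1 alone, which is assumed to vary like the BKC100 libraries and was the highest library for 77.0% of all tested genes; 115 genes were called there, against 22. Under quantile normalization it was 0.11, opposite in sign. The protein-coding neighbours of Amy2a3 in the amylase cluster, examined after these values were seen, had the same order of groups. LOC103689940, which RefSeq also lists under the name Amy2, had 26454 and 27258 FPKM with BKC100 and 35296 and 28389 FPKM with vehicle. LOC120100609, the highest of the cluster, had 39812 and 40620 FPKM with BKC100 and 60455 and 41707 FPKM with vehicle. LOC120100610 had 29031 and 28864 FPKM with BKC100 and 45258 and 29244 FPKM with vehicle, and Amy1 stood far lower, at 63.1 and 56.3 FPKM with BKC100 and 95.8 and 70.9 FPKM with vehicle. None passed. How the authors' counting divided reads among these related genes is not given in the sources used here, so their values may not be independent and each is uncertain. Summed, the coding genes of the cluster had 120920 and 122710 FPKM with BKC100 and 179290 and 125710 FPKM with vehicle.

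None of the 6 lipases and lipase partners passed. Pnlip, pancreatic triglyceride lipase, had 19532 and 17272 FPKM with BKC100 and 22005 and 14473 FPKM with vehicle. Clps, colipase, which anchors Pnlip to fat droplets, had 6492.5 and 7246 FPKM with BKC100 and 8019 and 5349 FPKM with vehicle. Cel, the bile-salt-activated lipase, had 10258 and 11199 FPKM with BKC100 and 11298 and 8480 FPKM with vehicle. In all 3 genes the vehicle libraries were the highest and the lowest of the 4. Pla2g1b, a secreted phospholipase, had 8183 and 9585 FPKM with BKC100 and 9513 and 7460 FPKM with vehicle, with a BKC100 library highest. Pnliprp1, a lipase relative with little activity of its own, had 14225 and 13376 FPKM with BKC100 and 15629 and 11534 FPKM with vehicle. Pnliprp2 had 1595 to 1643 FPKM with BKC100 and 1461 to 1993.5 FPKM with vehicle.

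**Figure D3:**
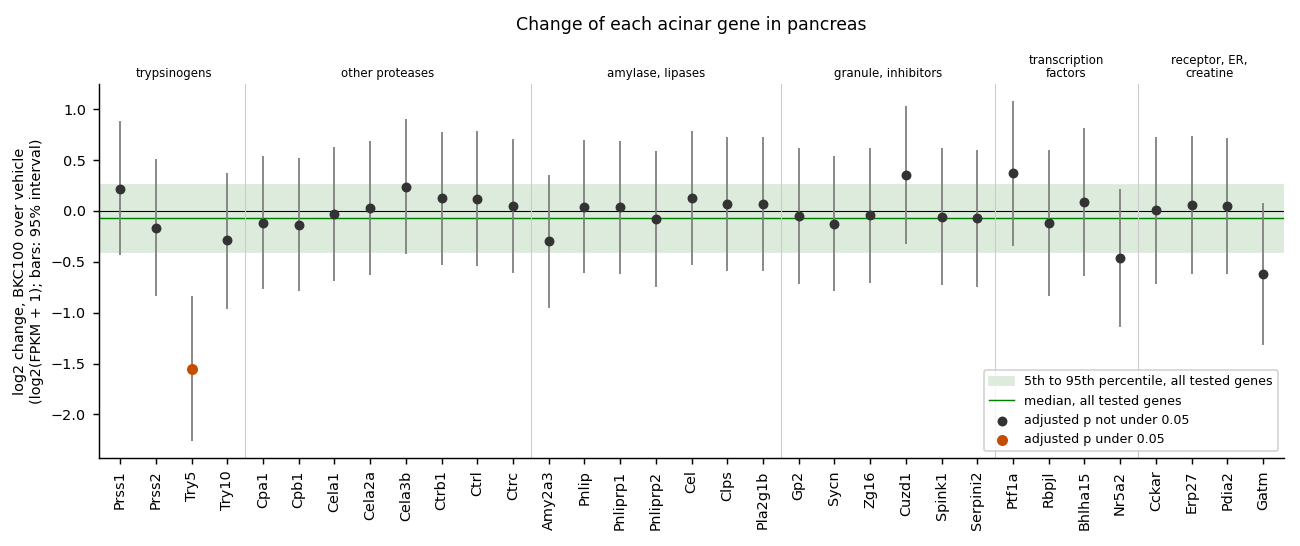
The log2 change of each tested acinar gene, BKC100 over vehicle, on the log2(FPKM + 1) scale (points) with its 95% interval from limma (bars), ordered by role. Only Try5 passed the threshold, at -1.55, and 32 intervals include 0; the green line is the median of all tested genes, -0.07, and the green band runs from their 5th to their 95th percentile, -0.40 to 0.25.

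Because library composition differed, the enzymes were also set against protein-coding FPKM alone. Rn7sl1, the RNA of the signal recognition particle, took 23.6% and 19.8% of summed FPKM with BKC100 and 14.5% and 15.9% with vehicle. Ribosomal RNA genes took 9.20% and 10.4% with BKC100 and 4.45% and 13.7% with vehicle. Protein-coding genes held 65.7% and 68.0% with BKC100 and 79.6% and 68.3% with vehicle, so the denominators of the libraries were unlike. Of protein-coding FPKM, the listed genes made up 54.9% and 54.1% with BKC100 and 50.7% and 51.2% with vehicle, a difference of 3.55 percentage points, opposite in sign to that over all FPKM. Counting the rest of the amylase cluster with them, the shares were 80.3% and 80.4% with BKC100 and 80.1% and 81.1% with vehicle, a difference of -0.26 percentage points (exact permutation p = 1.0).

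Shares of coding transcript were then taken by class, a comparison chosen after the values of Amy2a3 and its neighbours were seen. The amylase cluster held 32.2% and 33.4% with BKC100 and 37.4% and 37.9% with vehicle (means 32.8 ± 0.793% and 37.6 ± 0.378%, SD, n = 2 each). The 12 trypsinogens and other proteases measured held 28.7% and 27.5% with BKC100 and 25.3% and 25.5% with vehicle. The lipase group held 16.1% and 16.4% with BKC100 and 14.3% and 14.7% with vehicle. In each class both BKC100 libraries stood on the same side of both vehicle libraries. The share of all tested genes that do so on this scale was not computed, so no excess is read from the classes. A test of 2 libraries against 2 cannot go below 0.33, so these shares are a description and no difference between the groups is shown by them. Over all FPKM the other proteases overlapped, at 15.4% and 14.98% with BKC100 and 16.5% and 14.6% with vehicle. Unlike single FPKM values, these shares were close between the vehicle replicates. Shares of a whole are linked, so a lower share of amylase leaves a higher share to the rest.

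**Figure D4:**
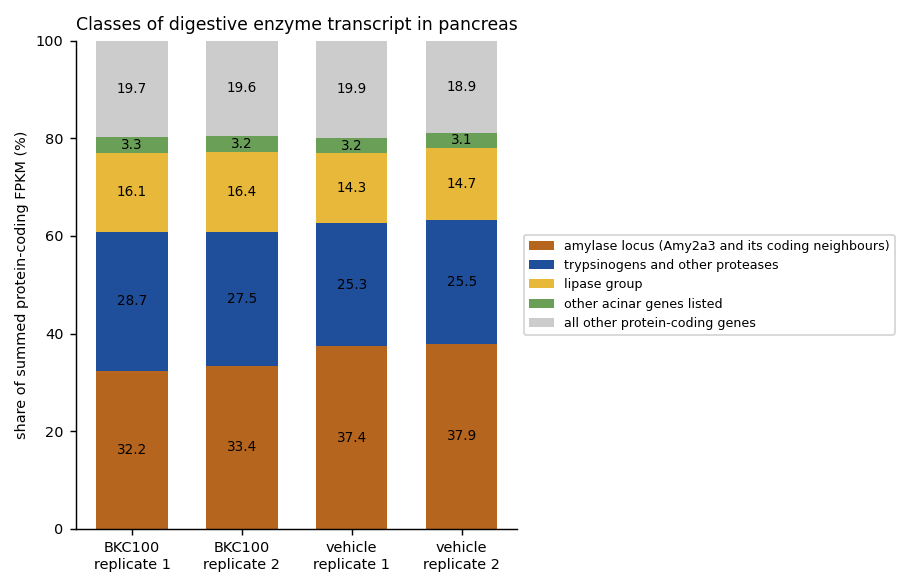
Stacked bars of the share of summed protein-coding FPKM (%) held by the amylase cluster, the trypsinogens and other proteases, the lipase group, the other listed acinar genes and all other coding genes, in each pancreas library. The amylase cluster was 32.2% and 33.4% with BKC100 and 37.4% and 37.9% with vehicle, and the 4 acinar classes together were between 80.1% and 81.1% in every library.

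As a share of the listed genes' own sum, 17 of 33 did not overlap between groups (12 lower and 5 higher with BKC100). On that scale 40.1% of all tested genes did not overlap, with 28.0% lower and 12.1% higher. The listed genes form the denominator, so a shift that they share cancels for them but not for other genes. The count for the list and this background are therefore not on a like footing, and no excess is read from them. Amy2a3 was 12.4% and 13.0% of the sum with BKC100 and 15.7% and 15.5% with vehicle. Prss1 was 9.17% and 9.75% with BKC100 and 8.51% and 7.66% with vehicle. Lower on this scale beside Amy2a3 were the trypsinogens Prss2, Try5 and Try10, the proteases Cpa1 and Cpb1, Pnliprp2, Sycn, Zg16, Rbpjl, Nr5a2 and Gatm. Higher beside Prss1 were Cela3b, Cuzd1, Ptf1a and Pdia2, so trypsinogens and transcription factors were found on both sides.

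The granule proteins and inhibitors did not pass, 6 tested of 7. Zg16, a lectin of the granule membrane, had 4921 and 4608 FPKM with BKC100 and 5900 and 4087 FPKM with vehicle. Spink1, the trypsin inhibitor of the granule, had 499.6 and 395.5 FPKM with BKC100 and 634.5 and 336.1 FPKM with vehicle. Gp2, the main granule membrane glycoprotein, Sycn, a granule protein needed for regulated exocytosis, and Serpini2, a serine protease inhibitor, likewise had both BKC100 values between the vehicle values. Cuzd1, a granule membrane protein, had 184.8 and 239.7 FPKM with BKC100 and 187.7 and 145.3 FPKM with vehicle, and its log2 change of 0.35 did not pass.

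The transcription factors were expressed at much lower FPKM than the enzymes. Ptf1a, the pancreas-specific subunit of PTF1, had 10.3 and 12.2 FPKM with BKC100 and 11.6 and 6.11 FPKM with vehicle. Its log2 change was 0.37, and without vehicle replicate 2 it was -0.04. Rbpjl, its partner in adult acinar cells, had 29.7 and 25.9 FPKM with BKC100 and 36.6 and 25.0 FPKM with vehicle. Bhlha15 (Mist1), which organises the secretory machinery, had 15.9 and 14.9 FPKM with BKC100 and 15.1 and 13.7 FPKM with vehicle. Nr5a2, a nuclear receptor that works with PTF1 on enzyme genes, had 4.91 and 5.59 FPKM with BKC100 and 10.2 and 5.57 FPKM with vehicle (log2 change -0.46, 95% interval -1.14 to 0.22). In Nr5a2 vehicle replicate 1 was apart and the other 3 libraries were close. No factor passed, and the groups overlapped in all 4.

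Cckar, the cholecystokinin receptor of rodent acinar cells, varied little, with 26.1 and 25.2 FPKM with BKC100 and 27.9 and 23.3 FPKM with vehicle. Erp27 and Pdia2, both proteins of the disulfide isomerase family in the endoplasmic reticulum, ranged from 165.7 to 212 FPKM and from 381.6 to 412.5 FPKM with BKC100, and from 167 to 194.2 FPKM and from 320.2 to 458.9 FPKM with vehicle. Gatm, the first enzyme of creatine synthesis, had 42.4 and 36.8 FPKM with BKC100 and 75.5 and 49.6 FPKM with vehicle. Its groups did not overlap, and its log2 change of -0.62 (95% interval -1.32 to 0.08) was the largest among those that did not pass.

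Further acinar lists gave few calls. Of 8 tested enzymes and secreted proteins outside the 35 genes, 0 were called. The largest changes were in Dmbt1, a secreted scavenger-receptor protein (0.128 and 0.0759 FPKM with BKC100, 10.2 and 0.143 FPKM with vehicle), and in Prss3, given above. Of 15 tested genes of acinar cell organisation, 1 was called: Sel1l, which retrieves misfolded proteins from the endoplasmic reticulum, fell by 1.42 on the log2 scale (6.38 and 27.8 FPKM with BKC100, 33.3 and 43.3 FPKM with vehicle, limma adjusted p = 0.0446). BKC100 replicate 1 was apart, and without it the log2 change was -0.44 (adjusted p = 1). Without any other library Sel1l did not pass either, at -2.40 without BKC100 replicate 2, -1.60 without vehicle replicate 1 and -1.24 without vehicle replicate 2. The call of Sel1l also ended under median-ratio scaling (adjusted p = 0.841), quantile normalization (0.799), non-member genes at equal sums (0.999), coding genes at equal sums (0.88), no filter (1) and no robust shrinkage (0.119). Of 18 secretagogue receptor and exocytosis genes 0 were called, with a median log2 change of -0.08. The largest changes there were in Sctr, the secretin receptor (8.01 and 6.41 FPKM with BKC100, 13.0 and 8.47 FPKM with vehicle), and in Rab27b, a granule GTPase (2.73 and 1.86 FPKM with BKC100, 4.39 and 1.90 FPKM with vehicle).

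Of 25 genes of protein folding and the unfolded protein response 0 were called. Edem1, which targets misfolded glycoproteins for disposal, had 39.9 and 22.3 FPKM with BKC100 and 14.1 and 20.0 FPKM with vehicle. Ern1, the stress sensor IRE1, had 7.08 and 3.87 FPKM with BKC100 and 2.69 and 3.06 FPKM with vehicle. Both were higher in the 2 BKC100 libraries than in the 2 vehicle libraries and did not pass. Of the 25 genes, 3 had both BKC100 values above both vehicle values, against 5.06% of all tested genes. Another 3 had both below, against 11.0% of all tested genes. The log2 change was positive in 9 and negative in 16, with a median of -0.08.

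Of 9 genes of acinar injury and conversion to duct-like cells 0 were called, and the summed list stood at 365.4 and 425.9 FPKM with BKC100 and 2833 and 525.9 FPKM with vehicle. Most of that sum was Reg1a, a secreted lectin-like protein of acinar cells, with 247 and 326.7 FPKM with BKC100 and 2249 and 436.6 FPKM with vehicle. Reg1a, named after its values were seen, did not pass (limma adjusted p = 1, unadjusted p = 0.0257), and both its BKC100 values were below both vehicle values. Reg3b, a secreted lectin induced in pancreatitis, had 13.3 and 2.99 FPKM with BKC100 and 306.5 and 4.58 FPKM with vehicle, and Reg3a had 8.97 and 3.02 FPKM with BKC100 and 150.8 and 3.402 FPKM with vehicle. Vehicle replicate 1, the library that was highest for Try5, was therefore apart from the other 3 in these genes too. Whether the 2 share a source was not tested.

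Markers of other pancreatic cells also differed between the libraries. The 7 islet genes tested gave 0 calls, and the 22 islet genes summed to 479.4 and 301.8 FPKM with BKC100 and 531.9 and 66.0 FPKM with vehicle. Ins1 had 259 and 164.3 FPKM with BKC100 and 282.1 and 36.9 FPKM with vehicle, and Ins2 had 169.6 and 113.1 FPKM with BKC100 and 181.1 and 23.5 FPKM with vehicle. Vehicle replicate 2, the lowest library for 27 acinar genes, was the lowest for islet genes too. The 12 duct genes summed to 24.1 and 25.4 FPKM with BKC100 and 42.7 and 26.7 FPKM with vehicle, with 0 of 6 tested genes called; the largest changes were in Spp1 (6.03 and 7.76 FPKM with BKC100, 12.3 and 8.97 FPKM with vehicle) and Krt19 (1.14 and 1.10 FPKM with BKC100, 5.27 and 0.364 FPKM with vehicle), both also in the injury list. Of 4 tested adipocyte genes 1 was called: Adipoq, adiponectin, fell by 1.19 on the log2 scale (0.766 and 0.487 FPKM with BKC100, 3.28 and 2.21 FPKM with vehicle, limma adjusted p = 0.00671), which still passed when either vehicle library was left out (-0.99 without vehicle replicate 1, adjusted p = 0.0269, and -1.40 without vehicle replicate 2, adjusted p = 0.00248). Adipoq did not pass without BKC100 replicate 1 or BKC100 replicate 2 (-1.32 and -1.07, adjusted p = 1 for both), under median-ratio scaling (0.0646), under quantile normalization (0.0936) or with no filter (1). Of the 4 tested adipocyte genes 3 had both BKC100 values below both vehicle values, as had 11.0% of all tested genes. These were Adipoq, Fabp4 (10.5 and 9.05 FPKM with BKC100, 24.2 and 16.8 FPKM with vehicle) and Cfd (2.34 and 1.72 FPKM with BKC100, 4.99 and 4.33 FPKM with vehicle). Fabp4 and Cfd did not pass (limma adjusted p = 0.866 and 0.507), and Lpl overlapped. The 10 adipocyte genes summed to 27.6 and 24.1 FPKM with BKC100 and 49.1 and 34.5 FPKM with vehicle. Of these markers 1 of 22 islet genes, 0 of 12 duct genes and 0 of 10 adipocyte genes were listed at 0 in all 4 libraries. The part of islet, duct or fat tissue in the acinar values was not tested.

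For the remaining lists 0 genes were called. The 6 tested fibroblast genes were led by Lum (2.16 and 1.28 FPKM with BKC100, 4.12 and 1.68 FPKM with vehicle) and Dcn (27.9 and 19.1 FPKM with BKC100, 44.4 and 18.04 FPKM with vehicle), both matrix proteoglycans. The 6 tested macrophage and granulocyte genes were led by C1qa (4.85 and 2.33 FPKM with BKC100, 3.56 and 1.69 FPKM with vehicle) and Mrc1 (1.95 and 1.44 FPKM with BKC100, 1.47 and 0.959 FPKM with vehicle). The 7 erythroid genes summed to 96.5 and 23.6 FPKM with BKC100 and 286.1 and 22.3 FPKM with vehicle, led among the 5 tested by Hba-a3 (5.69 and 1.14 FPKM with BKC100, 17.7 and 1.60 FPKM with vehicle) and Hba-a2 (18.2 and 4.4 FPKM with BKC100, 55.2 and 4.81 FPKM with vehicle). Only 1 gene could be tested for endothelium (Pecam1, 1.96 and 1.75 FPKM with BKC100, 2.55 and 1.58 FPKM with vehicle), for lymphocytes (Ccl21, 1.02 and 0.406 FPKM with BKC100, 4.47 and 0.119 FPKM with vehicle) and for gut epithelium (Vil1, 1.89 and 1.72 FPKM with BKC100, 3.37 and 2.41 FPKM with vehicle).

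Adrenal gland and heart were read only for acinar transcript found outside the pancreas. Replicate 2 of the heart BKC100 group held the values of an adrenal library (BKC100 replicate 2) in 45777 of 45777 genes and was left out, so 6 adrenal and 5 heart libraries were used, with 1 heart library at 100 µg. The listed genes made up 0.00074% to 0.00212% of summed FPKM in adrenal gland and 0.0023% to 0.00543% in heart. In adrenal gland 12 of the 34 genes were listed at 0 in all 6 libraries, and in heart 15 of 34 in all 5. Prss2, Try5, Try10, Clps, Spink1, Serpini2, Ptf1a and Cckar were listed at 0 in every library of both organs. The organs were deposited as separate tables, and no test was made across them.

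In adrenal gland, 3 genes reached 1 FPKM in any library. Rbpjl had 3.28 and 4.59 FPKM with vehicle, 4.17 and 2.56 FPKM with BKC50, and 4.51 and 2.79 FPKM with BKC100. Cpb1 had 1.81 and 1.58 FPKM with vehicle, 0.683 and 1.69 FPKM with BKC50, and 0.822 and 0.631 FPKM with BKC100. Gatm ranged from 1.03 to 1.55 FPKM. Next came Ctrl, from 0.161 to 0.878 FPKM, and Cela3b, which was above 0 in 2 of 6 libraries with a highest value of 0.783 FPKM. Rbpjl was thus detected in every adrenal library while its partner Ptf1a was listed at 0.

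One adrenal library carried more enzyme genes than the rest. Adrenal vehicle replicate 1 had 17 listed genes above 0, against 8 to 12 in the other 5. It had Prss1 at 0.435 FPKM, Pnlip at 0.681 FPKM, Amy2a3 at 0.483 FPKM and Cpa1 at 0.136 FPKM, and Prss1 and Cpa1 were listed at 0 in the other adrenal libraries. Among these were 14 enzyme and granule genes. Each was a minute share of its own pancreas mean: 24.2 ppm for Prss1, 37.2 ppm for Pnlip, 16.7 ppm for Amy2a3 and 15.01 ppm for Cpa1, with a range of 9.01 to 173.7 ppm and a median of 23.1 ppm over the 14. These ratios set values across tables made separately, and only genes above 0 in adrenal vehicle replicate 1 entered them. Pnliprp1, Pla2g1b and Clps, with pancreas means of 13691, 8685 and 6777 FPKM, were listed at 0 in it. Cpb1 and Ctrl, which are among the 14, were above 0 in all 6 adrenal libraries, and Ctrb1 and Cel in 4.

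In heart, Pdia2 and Gatm alone reached 1 FPKM. Pdia2 had 20.7 and 11.4 FPKM with vehicle, 11.7 and 7.71 FPKM with BKC50 and 0.214 FPKM in the lone BKC100 library. The BKC100 value was below the 4 others, but a single library gives no replicate check and no test was made of it. Whether that library holds the same part of the heart as the others was not tested here. Dose and tissue piece therefore cannot be told apart in it. In GRCr8 Pdia2 lies beside Arhgdig and overlaps 0 genes. Gatm had 3.54 and 3.49 FPKM with vehicle, 2.56 and 3.31 FPKM with BKC50 and 6.61 FPKM in the lone BKC100 library. Cuzd1, Pnliprp1 and Ctrl followed, with highest values of 0.719, 0.385 and 0.298 FPKM. Pnliprp1 was above 0 in 4 of 5 heart libraries and listed at 0 in all adrenal libraries.

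**Figure D5:**
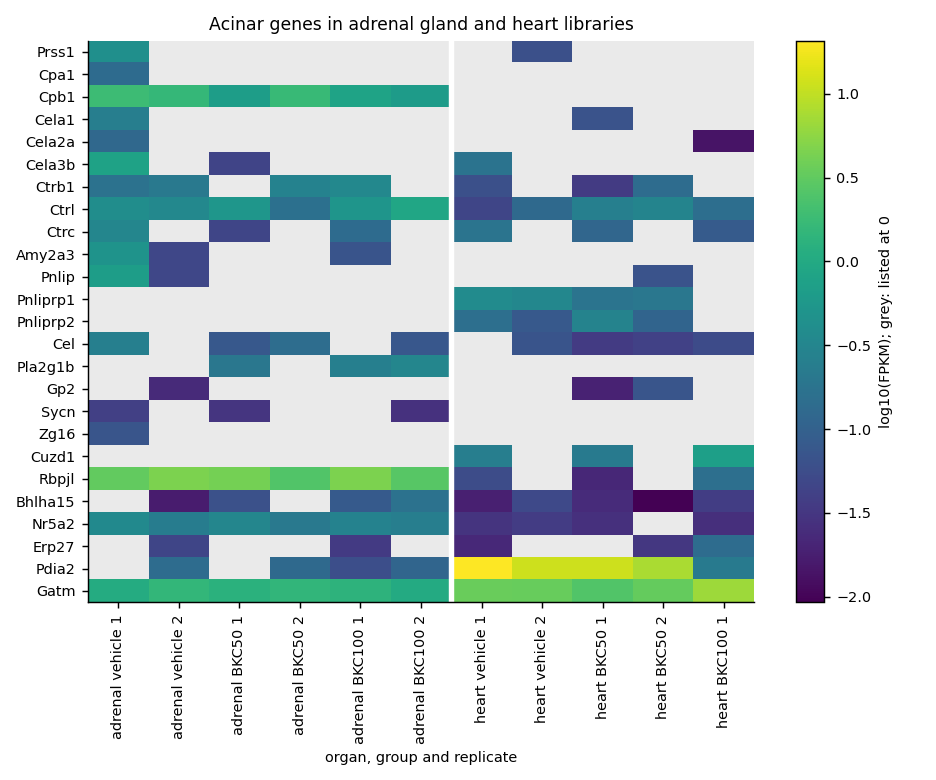
Acinar genes with a value above 0 in at least 1 adrenal or heart library, as log10 of FPKM (colour; grey cells are listed at 0), in the order vehicle, BKC50, BKC100 within each organ. Rbpjl, Cpb1 and Gatm in adrenal gland and Pdia2 and Gatm in heart were the genes that reached 1 FPKM, and adrenal vehicle replicate 1 was above 0 for 17 genes.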

How the data were processed

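RNA was sequenced from adrenal gland, heart and pancreas with a stranded mRNA library kit, per the labels' protocols. The authors deposited 1 table per organ with 1 value per gene symbol and library, read here as FPKM from the form of the values (not whole, with sums that differ between libraries), since the file headers name no unit. HISAT2 2.1.0, StringTie 2.1.3b and edgeR 3.40.2 are named in the submitters' processing notes, without their roles. The genome build is not given in the sources used here. Read depth is unknown, so no counting interval or detection limit was computed. Summed FPKM per library was 391123 to 1004889 in adrenal gland, 356725 to 476434 in heart and 486061 to 603063 in pancreas.

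The gene members and lists were chosen with earlier results of these data known. In pancreas, 2 BKC100 libraries were compared with 2 vehicle libraries by limma 3.58.1 in R 4.3.3, on log2(FPKM + 1) with a mean-variance trend and robust shrinkage. The 5610 genes that averaged 1 FPKM or more were tested, with Benjamini-Hochberg adjustment over them and a threshold of 0.05. The added 1 makes log2 changes of low genes smaller than they were. Shares of summed FPKM were compared by exact permutation over libraries with scipy 1.17.1 in Python 3.11.15. The test was run on simulated data, where it recovered 17 of 80 genes changed by 1 on the log2 scale and 71 of 77 changed by 2. Most changes of 1 were thus missed. The simulated noise was independent between values and held no shift shared by the genes of a library, unlike the vehicle libraries here.

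Values per library are given for called genes, the 15 most abundant members and a fixed set of regulators, and for other lists for called genes or the 2 largest changes. RefSeq GRCr8 supplied promoter sequences, gene synonyms and neighbours; 45777 of 45777 symbols matched it. Alternatives were a pseudocount of 0.1, no filter, the replicate block, other scalings, no robust shrinkage, other denominators and each library left out. Figures were drawn with matplotlib 3.10.9.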

Additional observations from a re-analysis of the deposited data

How the results depend on the processing

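The number of acinar genes called, 1 (Try5), became 0 with no filter on low values, under median-ratio scaling, under quantile normalization, without robust shrinkage and with protein-coding genes rescaled to equal sums (the last chosen after seeing the data). Leaving out each library in turn gave 0 to 2, with 0 without either BKC100 library or without vehicle replicate 1, and 2 (Amy2a3 and Try5) without vehicle replicate 2. It stayed at 1 with a pseudocount of 0.1, with non-member genes at equal sums and with the replicate block. With the replicate number as a block Try5 had a limma adjusted p of 0.0327 and 44 genes were called over all. Same-numbered pancreas libraries deviated together (correlation 0.423). With 2 pairs, however, the libraries share only the number in their titles. The numbers in their library names differ within each pair, so the pairing is arbitrary. The adjusted p of Try5 ranged from 4.04e-05 to 1 over the alternatives. Over all tested genes, the 22 calls became 0 with no filter, 1 under median-ratio scaling, 2 under quantile normalization, 54 with non-member genes at equal sums, 7 with protein-coding genes at equal sums, and 0 to 115 when a library was left out. The cause of these changes was not tested.

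The difference in the share of summed FPKM held by the acinar genes, -1.24 percentage points, was 3.55 of protein-coding FPKM and 1.07 without the 10 highest non-member genes, both opposite in sign. It was -3.96 to 1.49 when each library was left out, and -5.87 with the rest of the amylase cluster counted in (added after seeing the data). Among single genes that did not pass, Amy2a3 was 0.11 under quantile normalization. Prss1 (0.22) ranged from -0.12 to 0.56 and Ptf1a (0.37) from -0.04 to 0.78 over the left-out libraries, the lowest without vehicle replicate 2 for both. The median share in adrenal gland, 0.00141%, was 0.00216% of coding FPKM. That in heart, 0.00326%, was 0.000255% with Klk1, Nr5a2, Cckar, Erp27, Pdia2, Gatm, Cel, Pla2g1b, Spink1 and Bhlha15 left out.

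With 2 libraries per group and no read counts, changes of members smaller than the intervals given could not be resolved.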
